A study of Mus musculus with 68 samples.

Results

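The cells described here were single dopamine (DA) neurons of the ventral tegmental area (VTA) that held the most and the least mRNA of Fos among the cells of their own genotype. Fos counts were scaled to a total of 1000000 per cell (CPM) in each of 68 sequenced cells, 35 from wildtype (WT) mice and 33 from 3xTg mice, and the cells of each genotype were ranked and divided in 3. The top class (12 WT and 11 3xTg cells) is called high Fos and the bottom class (12 and 11 cells) low Fos, which makes 46 of 68 cells. The 11 cells between them in each genotype are called middle.

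All cells came from 12-month-old mice. 3xTg mice are homozygous for human transgenes of mutant amyloid precursor protein, mutant tau and mutant presenilin 1, and develop amyloid and tau pathology, while WT mice carry none of these. Each neuron was first recorded by patch clamp in a midbrain slice, and its contents and nucleus were then drawn through the recording pipette and made into 1 sequencing library. Slices were cut in a solution containing kynurenic acid and held in another with additions meant to limit excitotoxicity from slicing. Recordings could be made hours after slicing, and the time for each cell is not given. Whether Fos arose in the animal or in the slice was not tested. The sources used here do not name the mouse each cell came from, so each genotype was treated as 1 sample, and values are given without p-values because cells of 1 animal are not replicates.

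Fos encodes a subunit of AP-1, a transcription factor formed by FOS and JUN family proteins. In neurons, calcium entry and growth factor signals switch on Fos and a group of other immediate early genes within minutes through the factors CREB and SRF, without new protein synthesis, and a slower wave of genes such as Bdnf follows. Fos mRNA is short-lived and is widely used as a mark of recent activity, but heat, oxidative stress and tissue handling also induce it, and many stress genes are switched on through other factors such as HSF1, which binds heat shock elements.

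The stretches of promoter below are shown because they let genes that went with Fos be compared for the letters of the CREB binding site, TGACGTCA, and of its shorter form, TGACG. Each is the 250 bases before the transcription start in the RefSeq promoter table (build GRCm38.p6), written on the gene's own strand, with every TGACG or TGACGTCA, as read on that strand, in capitals. For a gene with several starts, only that nearest the start of its gene coordinates was read, so its other promoters are not covered. The regions are chr12:85473640-85473889 on the plus strand for Fos, and on the minus strand chr7:19310046-19310295 for Fosb, chr1:134079156-134079405 for Btg2, chr7:45526269-45526518 for Ppp1r15a, chr17:26508473-26508722 for Dusp1, chr4:95052223-95052472 for Jun and chr14:34374670-34374919 for Sncg. Jun and Sncg, which also went with Fos, hold neither form on either strand, and the same was true of Bdnf and Arhgdia, not printed. The heat shock gene Hspa1a (chr17:34972157-34972406, minus strand) is shown for contrast. In Hspa1a and Jun the capitals mark a match to the heat shock element GAANNTTC. The Bdnf window also holds such a match, 116 to 109 bases upstream.
Fos: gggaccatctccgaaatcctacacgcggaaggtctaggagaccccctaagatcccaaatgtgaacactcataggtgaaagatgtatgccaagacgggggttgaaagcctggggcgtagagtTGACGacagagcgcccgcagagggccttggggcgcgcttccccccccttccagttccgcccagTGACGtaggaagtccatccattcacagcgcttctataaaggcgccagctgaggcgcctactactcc
Fosb: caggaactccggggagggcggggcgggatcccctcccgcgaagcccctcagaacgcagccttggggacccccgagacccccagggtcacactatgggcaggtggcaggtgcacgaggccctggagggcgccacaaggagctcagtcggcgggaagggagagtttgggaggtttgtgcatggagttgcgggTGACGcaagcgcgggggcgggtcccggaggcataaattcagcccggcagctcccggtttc
Btg2: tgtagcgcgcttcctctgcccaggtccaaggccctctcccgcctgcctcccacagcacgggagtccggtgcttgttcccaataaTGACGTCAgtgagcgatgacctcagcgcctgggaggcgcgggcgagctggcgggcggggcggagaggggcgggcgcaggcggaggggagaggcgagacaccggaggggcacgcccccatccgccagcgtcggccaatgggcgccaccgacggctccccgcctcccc
Ppp1r15a: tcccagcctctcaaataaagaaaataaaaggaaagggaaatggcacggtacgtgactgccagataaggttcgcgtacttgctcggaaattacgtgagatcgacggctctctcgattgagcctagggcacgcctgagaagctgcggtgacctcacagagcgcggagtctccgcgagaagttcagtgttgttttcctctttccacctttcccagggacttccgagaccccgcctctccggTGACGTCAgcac
Dusp1: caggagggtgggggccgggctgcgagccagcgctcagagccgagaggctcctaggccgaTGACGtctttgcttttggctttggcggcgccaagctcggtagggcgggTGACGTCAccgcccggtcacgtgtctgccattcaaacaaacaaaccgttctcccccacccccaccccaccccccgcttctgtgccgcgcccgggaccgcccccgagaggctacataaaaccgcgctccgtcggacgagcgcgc
Jun: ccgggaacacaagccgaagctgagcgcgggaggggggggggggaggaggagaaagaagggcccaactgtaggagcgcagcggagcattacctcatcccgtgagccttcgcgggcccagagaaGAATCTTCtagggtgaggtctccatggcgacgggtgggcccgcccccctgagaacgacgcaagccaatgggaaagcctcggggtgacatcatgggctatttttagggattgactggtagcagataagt
Sncg: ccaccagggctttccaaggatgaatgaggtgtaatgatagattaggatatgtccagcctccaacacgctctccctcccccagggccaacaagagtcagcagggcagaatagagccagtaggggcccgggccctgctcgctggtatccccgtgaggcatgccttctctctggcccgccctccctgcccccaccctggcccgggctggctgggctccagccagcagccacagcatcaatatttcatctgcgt
Hspa1a: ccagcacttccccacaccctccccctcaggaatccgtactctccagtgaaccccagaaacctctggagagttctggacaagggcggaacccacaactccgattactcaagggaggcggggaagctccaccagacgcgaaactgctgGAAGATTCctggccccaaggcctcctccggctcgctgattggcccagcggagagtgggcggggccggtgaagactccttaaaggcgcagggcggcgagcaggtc

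On either strand, TGACGTCA stood in the promoters of Btg2 (166 to 159 bases upstream of the start), Ppp1r15a (12 to 5 bases), Dusp1 (143 to 136 bases) and Maff, 4 of the 17 AP-1 and rapid immediate early genes, Fos included, that passed the filter on low values and had a promoter in the table. The same letters were found in 1.55% of all 32851 promoters and in 2.99% of the 7784 promoters of genes that passed the filter. TGACG, which every TGACGTCA contains, stood in 10 of the 17, among them Fos (129 to 125 and 66 to 62 bases upstream) and Fosb (60 to 56 bases), against 17.8% of all promoters and 28.0% of those of genes that passed. TGACG also stood in 7 of 13 heat shock gene promoters, so this form did not set the lists apart. TGACGTCA stood in 0 of those 13, which at 2.99% of genes that passed is no result about so short a list. GAANNTTC stood in 1 of the 17, Jun, and in 5 of 13 heat shock gene promoters (Dnaja1, Hspa1a, Hspa1b, Hspd1 and Hspe1), against 6.69% of all promoters and 5.07% of those of genes that passed. The SRF binding site (CArG box) was in none of the 17 windows and in 1.47% of all, and the AP-1 binding site was in none of the 17 and in 4.46% of all. These are matches of letters within 250 bases and say nothing about binding in these cells. Distances count from the start in the promoter table, which for Fos lies a few bases before the start of the gene coordinates given next.

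Fos mRNA was found in nearly every neuron. Fos (gene ID 14281, chr12:85473901-85477270 on the plus strand of mm10) had a count in 35 of 35 WT cells (95% Clopper-Pearson interval 89.997 to 100%) and in 32 of 33 3xTg cells (97.0%, 84.2 to 99.9%), where intervals here and below cover counting error only. The 3xTg cell without a count, number 78, had 964829 counts in all, which allows up to 3.11 CPM. WT cells ranged from 3.43 to 5089 CPM with a median of 635, and 3xTg cells from 0 to 5588 CPM with a median of 1361. At least 1000 CPM was reached by 14 WT and 19 3xTg cells, so the levels of the genotypes overlapped over nearly their whole range.

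There was no gap in Fos level at the edges of the classes. In WT the highest low cell had 446 CPM and the next cell 452 CPM, and the lowest high cell had 1396 CPM and the next below it 1227 CPM. In 3xTg the corresponding values were 509 and 559 CPM, and 2401 and 2014 CPM. The high cells held 76.6% of all Fos counts of WT and 69.6% of those of 3xTg. Since the classes were selected on these values, the Fos difference between them is a description of the selection.

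**Figure D1:**
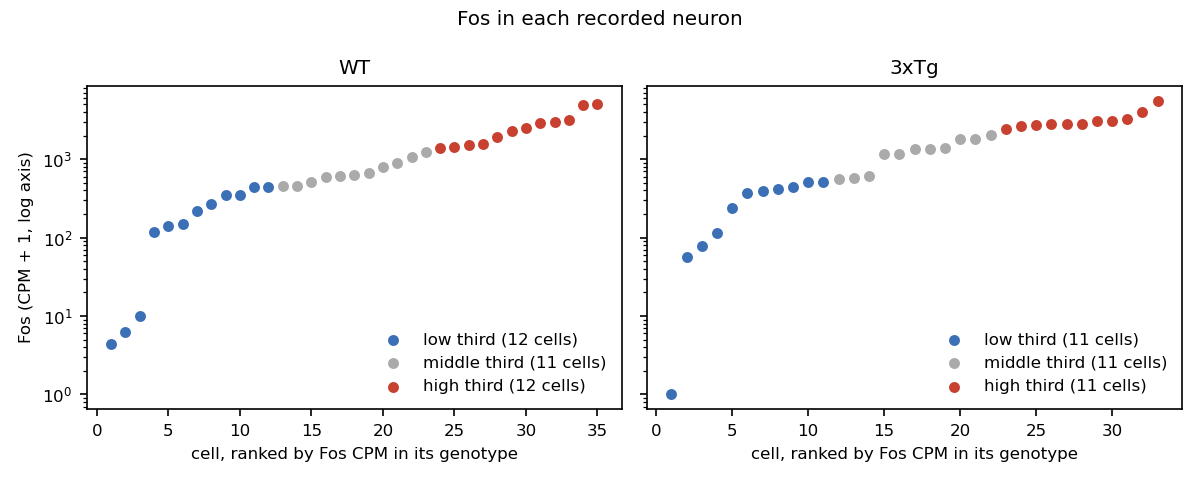
Fos CPM + 1 (log axis) of every cell, ranked within WT and within 3xTg, with the low, middle and high classes in different colors. The points run from 3.43 to 5089 CPM in WT and, above the cell at 0, from 56.2 to 5588 CPM in 3xTg without a break at either class edge; the 3xTg cell with no Fos count is drawn at the foot of the axis.

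Other genes were compared on counts divided by a size factor for each cell (normalized counts). The difference of a gene is the mean of log2(normalized count + 1) in high cells minus that in low cells, less the median difference of all 9829 genes with a count in at least 25% of the cells of each genotype, which was -0.04 in WT and 0.08 in 3xTg. The scale understates differences of low genes, and all differences below are on it. A gene is called higher or lower with Fos when its difference was at least 1 (2-fold) in that direction. In WT, 1807 genes were higher (18.4%) and 1318 lower (13.4%). In 3xTg, 1667 were higher (17%) and 1182 lower (12%). Differences of this size were thus common in either genotype alone.

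The genotypes are different cells from different mice, so a gene higher in both had to pass in separate sets of cells. Fos and 525 other genes (526, 5.35%) were higher in both and 218 (2.22%) were lower in both, while 169 were higher in WT and lower in 3xTg and 197 the reverse. The genes higher in both were 29.1% of those higher in WT and 31.6% of those higher in 3xTg, and the genes lower in both were 16.5% and 18.4%. Over all genes but Fos the differences in WT and 3xTg had a Pearson correlation of 0.19, which is across genes that share the same libraries. In counts summed over the cells of a class, where a few strong cells weigh most, 482 of the 526 were also higher in high cells of both genotypes and 211 of the 218 lower.

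**Figure D2:**
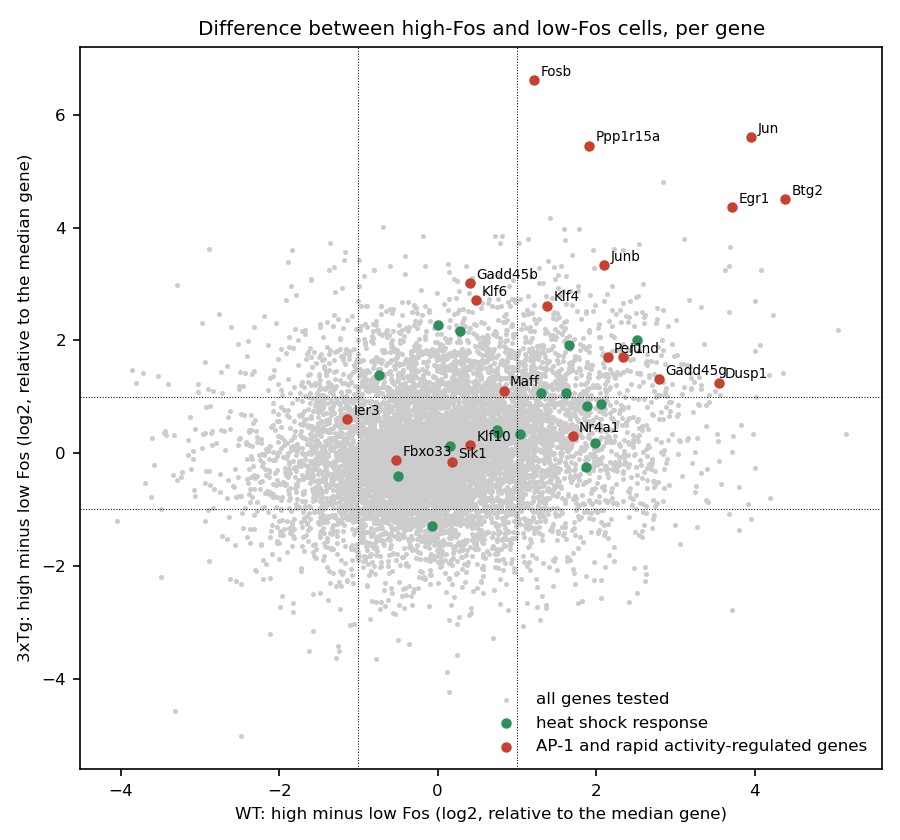
Difference between high and low Fos cells in WT (x axis) against 3xTg (y axis), in log2 of normalized count + 1 relative to the median gene, for all 9829 genes, with AP-1 and rapid genes in red, heat shock genes in green and dotted lines at -1 and 1. The cloud of all genes is nearly round (Pearson r 0.19), while 11 of 19 AP-1 and rapid genes and 4 of 17 heat shock genes lie beyond 1 on both axes.

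Other AP-1 genes that could be compared went with Fos. Of 11 AP-1 genes other than Fos, 4 passed the filter, Fosb, Jun, Junb and Jund, and all 4 were higher with Fos in both genotypes, with a median difference of 2.22 in WT and 4.47 in 3xTg. Fosb, a close relative of Fos, had normalized counts of 0, 0 and 111 (lowest, median and highest cell) in low and 0, 12.1 and 303 in high WT cells. In 3xTg the same values were 0, 0 and 37.6 in low and 34.1, 192 and 1204 in high cells. The WT classes overlapped broadly, whereas 10 of 11 3xTg high cells lay above every low cell, and the differences were 1.22 and 6.63. Without WT cell 60 the WT difference was 0.85, below the 2-fold mark.

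Jun, the main partner of FOS, had 0, 0.632 and 307 normalized counts in WT low and 0, 195 and 359 in WT high cells. In 3xTg it had 0, 8.76 and 185 in low and 47.7, 683 and 1909 in high cells. Its difference was 3.95 in WT, where 2 of 12 high cells exceeded the highest low cell, and 5.61 in 3xTg, where 9 of 11 did. The middle cells, which the difference does not use, had Jun medians between those of the other classes, 38.3 in WT and 177 in 3xTg. The middle median was not always between the others: for Egr1 it was 4.04 in WT and 70.1 in 3xTg, for Btg2 0 and 80.3, for Bdnf 81.9 and 260, and for Aldh1a1 1571 and 0.826, so that in WT Egr1, Btg2, Bdnf and Aldh1a1 and in 3xTg Bdnf and Aldh1a1 did not run in order of Fos class. Junb differed by 2.10 and 3.33 and Jund by 2.34 and 1.71 in WT and 3xTg, with overlapping classes in each. Fosl1, Fosl2 and Atf3 were among the AP-1 genes with counts in too few cells to pass the filter.

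Rapid immediate early genes outside AP-1 were also frequent among the genes that went with Fos. Of 33 on the list 15 passed the filter, and 7 of these were higher in both genotypes: Egr1, Btg2, Dusp1, Ppp1r15a, Klf4, Gadd45g and Per1. With the AP-1 genes this made 11 of 19 (57.9%) beside 5.35% of all genes, and the median difference of the 19 was 1.70 in WT and 1.71 in 3xTg beside 0 for all genes. The lists were drawn up with earlier results of these data known, so the shares are descriptions.

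Egr1, a zinc finger transcription factor, had 0, 18.4 and 159 normalized counts in WT low and 24.6, 119 and 708 in WT high cells, and every WT high cell lay above the low median. In 3xTg it had 0, 2.08 and 302 in low and 0, 188 and 2405 in high cells, and 10 of 11 high cells lay above the low median. Its differences were 3.71 in WT and 4.37 in 3xTg, and the classes overlapped in both. Btg2, an antiproliferative regulator of mRNA decay, had 0, 23.2 and 167 in WT low and 0, 270 and 2675 in WT high cells. In 3xTg it had 0, 30.4 and 146 in low and 92.2, 325 and 1237 in high cells. In each genotype 8 high cells exceeded every low cell, and the differences of 4.39 and 4.52 were close to each other.

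Some members rested on fewer cells or differed between the genotypes in size. Dusp1, a phosphatase that shuts off MAP kinases, had medians of 173 in WT low and 773 in WT high cells (difference 3.54) and of 134 and 346 in 3xTg (1.25). The highest Dusp1 cell of each genotype was a low Fos cell, at 3152 normalized counts in WT and 5475 in 3xTg, and without the 3xTg one (number 24) the difference there was 2.38. Ppp1r15a (GADD34), which restores translation after stress, had medians of 1.14 in low and 411 in high cells of 3xTg (5.46), where 8 of 11 high cells exceeded every low cell. In WT its medians were 36.8 and 154 (1.92), the summed counts of high and low cells differed by -0.16 on the log2 scale, and 1 low cell (number 7) held 4480 normalized counts, without which the difference was 3.24. Klf4 differed by 1.39 and 2.62, Gadd45g by 2.79 and 1.31 and Per1, a clock gene, by 2.15 and 1.70. Klf4 in WT fell to 0.89 without cell 14, and Gadd45g in 3xTg was 2.09 without cell 24 and 0.90 without cell 38.

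Other rapid genes did not pass in both genotypes. Klf6 and Gadd45b differed by 0.48 and 0.41 in WT and by 2.71 and 3.01 in 3xTg, and Nr4a1 by 1.70 in WT and 0.30 in 3xTg. Ier3 (-1.14 and 0.60), Klf10 (0.41 and 0.14), Sik1 (0.18 and -0.16) and Fbxo33 (-0.52 and -0.13) were not higher by 2-fold in either. The neuron-restricted activity gene Npas4 was seen in 4 high and 1 low WT cells and in 4 high and 3 low 3xTg cells. Arc, which encodes a synaptic capsid-like protein, was seen in 2 high and 1 low WT cells and in 1 high and no low 3xTg cell. Both had counts in too few cells to be compared, as did Egr2, Egr3, Egr4, Ier2, Nr4a3 and Zfp36.

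Of the 19 AP-1 and rapid genes that passed, low WT cells held a count of 4, 9 and 13 (lowest, median and highest cell) and high WT cells of 8, 12 and 17. In 3xTg the numbers were 8, 10 and 13 in low and 7, 15 and 17 in high cells, with overlap in both genotypes. Egr1, Jun, Btg2, Junb and Fosb were chosen after their values were seen, a choice that favors high cells, so what follows is a description. All 5 had a count in 6 of 12 WT high cells (50.0%, 95% Clopper-Pearson interval 21.1 to 78.9%) and in 1 of 12 low cells (8.33%, 0.211 to 38.5%). In 3xTg they all had one in 10 of 11 high cells (90.9%, 58.7 to 99.8%) and in 0 of 11 low cells, which allows a share of up to 27.3% (3 of 11 cells, with a Clopper-Pearson limit of 28.5%). Among middle cells the share was 1 of 11 in WT and 7 of 11 in 3xTg. The spread of these shares over mice is unknown.

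Small counts in these libraries need care, because 57 of the 68 cells had counts of both Xist and a Y-linked gene, which are not normally expressed in the same mouse cell. In 43 of those the smaller of the 2 counts was under 10 (median over the 57 cells 3, highest 61.5). Whether counts had passed between libraries was not tested. With at least 10 counts required of each of the 5 genes, the cells with all 5 were 5 of 12 high and 1 of 12 low in WT and 9 of 11 high and 0 of 11 low in 3xTg. At that limit Egr1 was present in 12 high and 6 low WT cells and in 10 high and 3 low 3xTg cells, and Fosb in 6 high and 5 low WT cells and in 11 high and 1 low 3xTg cells.

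**Figure D3:**
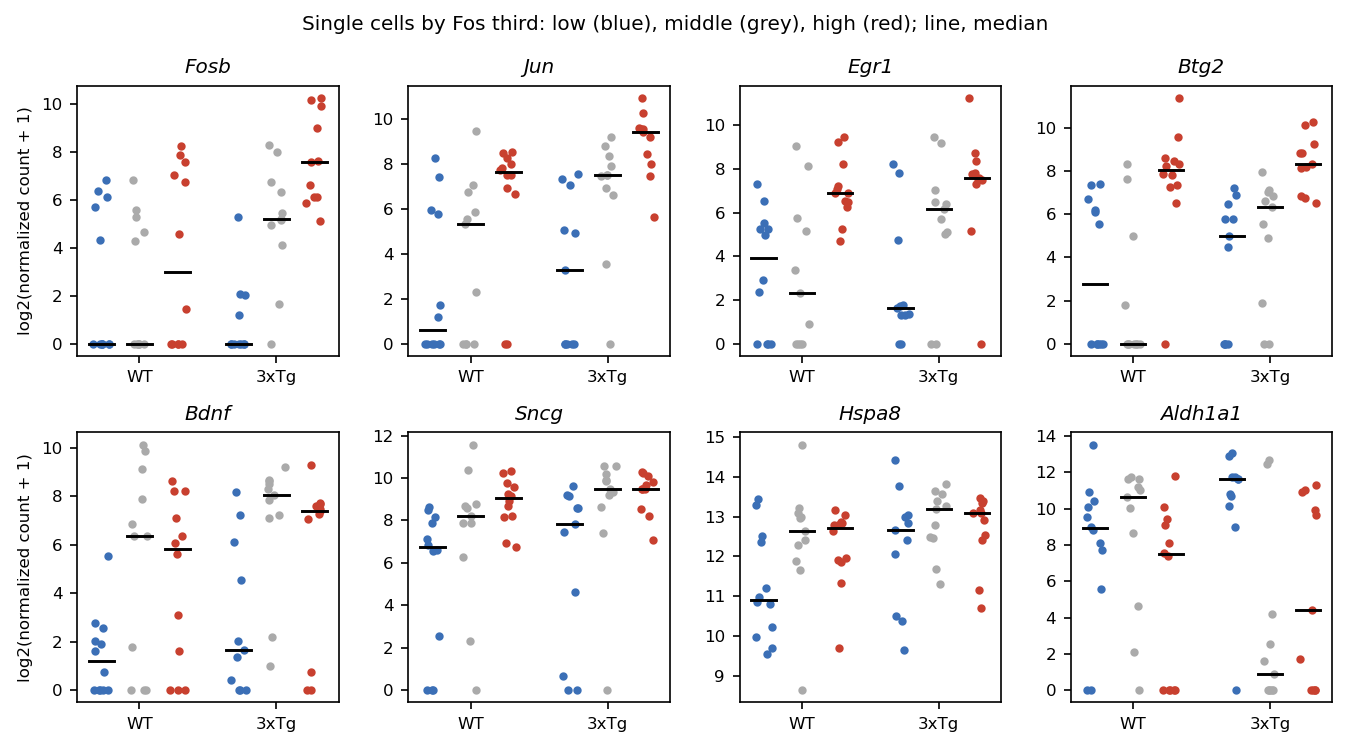
Log2 of normalized count + 1 (y axis) of Fosb, Jun, Egr1, Btg2, Bdnf, Sncg, Hspa8 and Aldh1a1 in each cell of the low, middle and high Fos classes of WT and 3xTg; each point is 1 cell and each line the median. As normalized counts, Jun has medians of 0.632, 38.3 and 195 in WT and 8.76, 177 and 683 in 3xTg, Hspa8 is high in all classes, and Aldh1a1 runs the other way in 3xTg from 3181 in low to 20.0 in high cells.

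Some genes of the slower wave of activity-regulated genes went with Fos. Of 20 listed 14 passed the filter, and 3, Bdnf, Rgs4 and Mbnl2 (21.4%, beside 5.35% of all genes), were higher in both genotypes, while the median differences were -0.04 in WT and 0.69 in 3xTg. In WT alone 3 of the 14 were higher and 3 lower, beside 18.4% and 13.4% of all genes. In 3xTg 6 were higher and 0 lower, beside 17% and 12%. Bdnf, the neurotrophin brain-derived neurotrophic factor, had 0, 1.4 and 45.9 normalized counts in low and 0, 56.6 and 398 in high WT cells, and 7 of 12 high cells exceeded every low cell. In 3xTg it had 0, 2.11 and 286 in low and 0, 167 and 621 in high cells, with 1 of 11 high cells above every low cell. Its differences were 3.18 and 2.71. Rgs4, which quenches G protein signals, differed by 2.88 and 1.57, and Mbnl2, a splicing factor, by 1.36 and 2.12. Within the runs of label numbers described below, Rgs4 and Mbnl2 were higher in only 3 runs each, with lowest values of -0.27 and -0.089.

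Genes of the pathway that leads to Fos were mostly close to the median gene. Of 31 that passed among calcium channel, kinase, CREB and SRF genes, 2 were higher in both (6.45% beside 5.35% of all genes), with medians of -0.01 in WT and 0.27 in 3xTg. They were Camk2b, a calcium/calmodulin-dependent kinase (2.20 and 1.82), and Ppp3ca, the catalytic subunit of calcineurin (1.05 and 1.46).

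Heat shock and oxidative stress genes were the stress lists with the largest median differences over all cells, although within single runs the heat shock median turned below 0 in 2 of 4 (-0.65 and -0.22) and the oxidative stress median in 1 (-0.36). Of 17 heat shock genes 4 were higher in both genotypes (23.5%, beside 5.35% of all genes), Hspa1a, Hsph1, Dnajb1 and Hspd1, and the median differences were 1.04 in WT and 0.84 in 3xTg. Dnajb1, a co-chaperone of HSP70, had 2.42, 62.8 and 822 normalized counts in WT low and 3.66, 210 and 952 in WT high cells. In 3xTg it had 5.42, 81.1 and 627 in low and 15, 327 and 2179 in high cells, giving differences of 1.65 and 1.92 with overlap in both. Hspa1a, the stress-induced HSP70 whose promoter is printed above, differed by 1.31 and 1.08 but from low levels, with medians of 0.899 and 2.42 in WT and 3.49 and 14.6 in 3xTg.

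Hspa8, the constitutive HSP70, was abundant in every cell. It had 739, 1926 and 11084 normalized counts in WT low and 822, 6719 and 9195 in WT high cells, and 799, 6463 and 22127 in 3xTg low and 1664, 8738 and 11419 in 3xTg high cells. In both genotypes the highest low cell thus exceeded every high cell, and the differences were 1.04 and 0.34. Summed counts gave smaller medians over the heat shock list, 0.58 in WT and 0.16 in 3xTg, and without 3xTg cell 31 the 3xTg median was 0.48. For the AP-1 and rapid list, summed counts gave a smaller median in WT (0.79 beside 1.70) and a larger median in 3xTg (2.37 beside 1.71).

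Oxidative stress genes were higher in both for 4 of 8 that passed (50.0%, beside 5.35% of all genes), with medians of 1.03 and 1.21. The metallothioneins Mt1 (1.13 and 1.37) and Mt2 (1.28 and 3.03) bind zinc and copper, Srxn1 (1.49 and 1.38) reduces oxidized peroxiredoxins and Slc7a11 (1.34 and 1.05) imports cystine. Slc7a11 was found in all cells of these classes, with medians of 313 in low and 1159 in high WT cells and of 961 and 1434 in 3xTg, and no high cell exceeded the highest low cell. Mt2 in 3xTg was at 0, 0 and 279 in low and 11.2, 29.7 and 365 in high cells.

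In the unfolded protein and integrated stress response 2 of 16 were higher in both (12.5%, beside 5.35% of all genes), the transcription factor Ddit3 (1.69 and 1.61) and the endoplasmic reticulum chaperone Hspa5 (1.65 and 1.02), and the list medians were -0.19 in WT and 0.78 in 3xTg. In 3xTg alone 7 of the 16 were higher and 0 lower, beside 17% and 12% of all genes. In WT 2 were higher and 2 lower, beside 18.4% and 13.4%. Ppp1r15a, which restores translation after stress, was counted above among the rapid genes and not here. None was higher in both among 3 neuronal injury, 9 p53 and apoptosis, 9 hypoxia and 6 NF-kB and cytokine genes, lists too short for a count of 0 to stand apart from the 5.35% of all genes. Their medians ran from -0.72 to -0.06 in WT and from -0.32 to 0.42 in 3xTg.

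The labels number the cells in 5 runs that alternate between the genotypes, without saying whether a run was a day or a plate. WT cells have numbers 1 to 22, 57 to 74 and 94 to 96, and 3xTg cells 24 to 55 and 76 to 92. High and low cells were found in each of the 4 long runs, which in label order held 17, 21, 15 and 12 cells. With the classes formed anew within a run (6, 7, 5 and 4 cells each), the median of the 19 AP-1 and rapid genes was 2.00, 2.36, 1.27 and 0.98 in label order. The heat shock median was -0.65, 0.77, 1.77 and -0.22, and the oxidative stress median -0.36, 1.22, 1.74 and 0.65. The AP-1 and rapid list was thus above the median gene in each run, and the heat shock list in 2 of 4.

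Only 49 of the 9829 genes (0.499%) were higher with Fos in each of the 4 runs, Fos among them, and 24 (0.244%) were lower in each. Of the AP-1 and rapid genes 5 of 19 were higher in all 4, namely Jun (4.79, 5.59, 3.37 and 3.54), Egr1 (3.22, 3.23, 1.17 and 4.17), Ppp1r15a (2.00, 5.98, 1.12 and 4.09), Klf4 (1.69, 1.35, 1.27 and 4.93) and Klf6 (2.36, 3.2, 1.4 and 1.26). Bdnf was as well (3.63, 1.83, 2.02 and 2.31). None of the 17 heat shock and 8 oxidative stress genes was, which at 0.499% of all genes is no result about such short lists. Of 25 other listed genes called in both genotypes, 7 had the same direction in all 4 runs (Camk2b, Dnajb1, Grp, Hspa5, Hsph1, Mt1 and Mt2) and 18 turned in at least 1, among them Ddit3, Hspd1, Slc7a11, Chrna6, Kcnma1, Ppp2r1a, Pkm and Calb2. Over all 743 genes called in both, Fos left out, 36.3% had the same direction in all 4 runs, and the lowest run of Hspa5 (0.0031) and Hsph1 (0.018) was barely above 0. Btg2 (6.52, 6.11, 0.37 and 1.31), Fosb (3.02, 6.99, 0.46 and 4.31) and Junb (3.38, 3.93, -0.41 and 0.84) were less even, and their smallest values were all in WT 57 to 74.

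**Figure D4:**
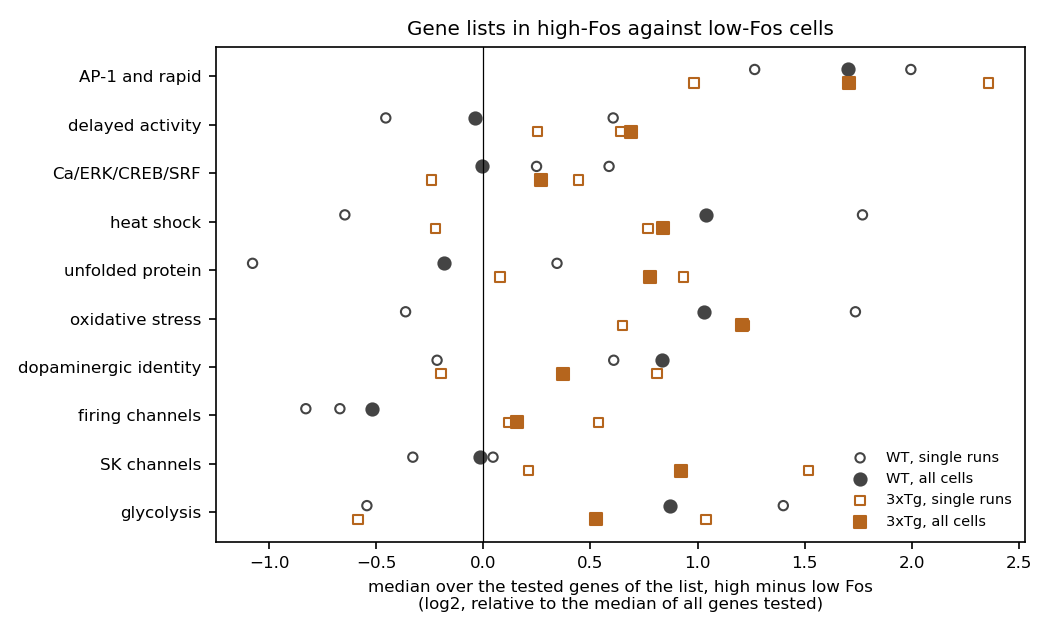
Median difference between high and low Fos cells (log2 of normalized count + 1, relative to the median gene) of each gene list, over all WT cells, over all 3xTg cells and within each of the 4 long runs. The AP-1 and rapid genes lie above 0 at all 6 points (0.98 to 2.36), while the heat shock genes range from -0.65 to 1.77.

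High Fos libraries were somewhat deeper. Total counts ran from 492505 to 1678624 over the 68 cells, and the class medians were 872477 in low and 1065311 in high WT cells and 964829 and 1208137 in 3xTg. Genes with a count went in opposite directions, with medians of 7994.5 in low and 6867.5 in high WT cells and 8478 and 9158 in 3xTg. With classes formed within runs and averaged, both directions turned, to 719.5 in WT and -210 in 3xTg (high minus low). Malat1, a nuclear RNA, took a median of 3.98% of counts in low and 2.00% in high WT cells, and 1.49% and 0.891% in 3xTg. Over the cells of a genotype (35 WT, 33 3xTg), the Spearman correlation of Fos CPM was 0.11 and 0.37 with total count, 0.04 and 0.08 with genes detected and -0.03 and -0.24 with the Malat1 share. These measures come from the same libraries as Fos.

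With each cell thinned to 700448 counts, which left out 7 of the 68 cells, the AP-1 and rapid median was 1.32 in WT and 1.52 in 3xTg and the heat shock median 1.16 and 0.64, and 448 genes were higher and 204 lower in both. With total count as a term in the fit, the AP-1 and rapid median was 1.49 in WT and 1.61 in 3xTg and the heat shock median 0.54 and 0.14, and the number of genes higher in both was 304.

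**Figure D5:**
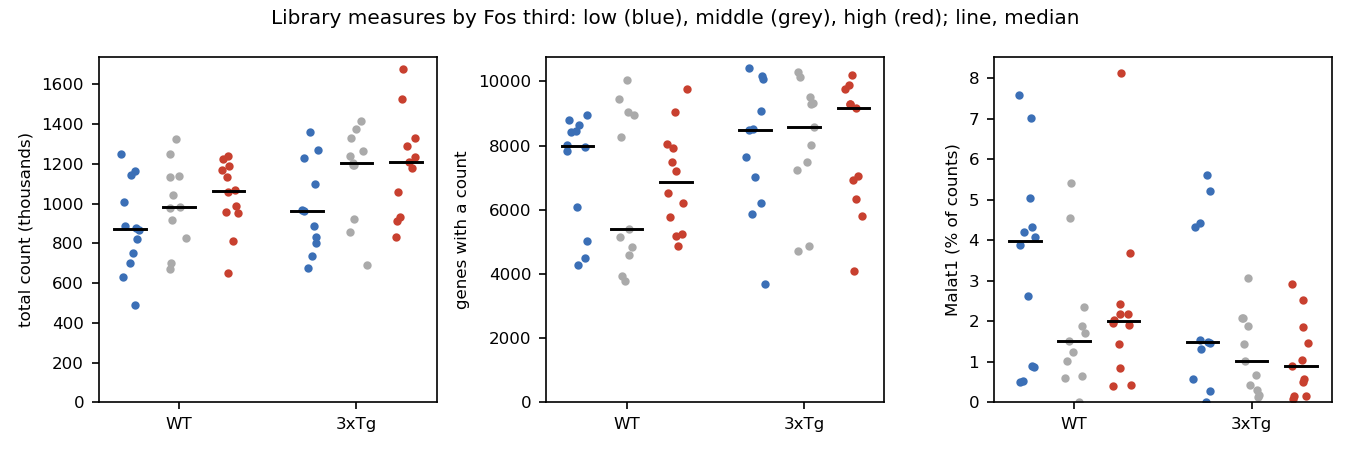
Total count (axis in units of 1000 counts), number of genes with a count and share of counts from Malat1 for each cell of the low, middle and high Fos classes of WT and 3xTg; points are cells and lines medians. Total counts overlap between the classes (medians 872477 and 1065311 in WT, 964829 and 1208137 in 3xTg), and genes detected are lower in high cells of WT and higher in those of 3xTg. Both directions of genes detected turned when classes were formed within runs.

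The cells of both classes had the markers of dopamine neurons, as the authors' selection required. The authors retained only cells positive for Th, Slc6a3 and Slc18a2, so the presence of these markers is a description of that selection. Th, the rate-limiting enzyme of dopamine synthesis, had a count in every cell, from 1187 to 15086 normalized counts in low and 1042 to 12645 in high WT cells and from 671 to 26801 and 2426 to 15910 in 3xTg, with differences of 0.95 and 0.72. Of 16 dopaminergic genes that passed, 3 were higher in both (18.8%, beside 5.35% of all genes), the synuclein Sncg (3.63 and 3.25), the nicotinic receptor subunit Chrna6 (1.13 and 1.15) and the midbrain transcription factor Lmx1a (1.10 and 1.97), and Aldh1a1 was lower. Within 3xTg 76 to 92 Sncg differed by only 0.25. Nr4a2, a transcription factor needed for DA neuron identity, differed by 3.30 in WT and 0.85 in 3xTg.

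Markers of other cells were present in most libraries. The authors retained only cells they called negative for Pvalb, Tmem119, P2ry12 and Aldh1l1, so low values of these genes describe that selection. A count of any of them remained in 5 WT and 5 3xTg cells. The summed CPM of 13 microglial markers had medians of 226 in low (11.9 to 8342) and 125 in high (4.27 to 4777) WT cells, and of 186 (2.73 to 615) and 59.9 (0.809 to 271) in 3xTg. A count was found for 12 of the 13 in low WT cells (Tmem119 at 0), 12 in high WT cells (P2ry12 at 0), 12 in low 3xTg cells (Tmem119 at 0) and 10 in high 3xTg cells (Tmem119, P2ry12 and Csf1r at 0). Fos CPM and this sum had Spearman correlations of -0.06 in WT and -0.40 in 3xTg. At least 10 counts of C1q genes were in 4 of 12 low and 3 of 12 high WT cells and in 6 of 11 low and 3 of 11 high 3xTg cells. Without all cells of that kind, 12 in WT and 14 in 3xTg, the classes formed anew held 8 WT and 6 3xTg cells each. The AP-1 and rapid median was then 1.83 in WT and 2.82 in 3xTg. Of 4 GABA neuron markers, 4 had a count in low and 3 in high WT cells, and 1 in low and 4 in high 3xTg cells. The summed medians were 63.9 and 19.8 CPM in low and high WT cells and 39.7 and 16.5 in 3xTg (4.39 to 267 and 3.87 to 115 in WT, 5.13 to 168 and 1.10 to 65.4 in 3xTg). The 8 astrocyte markers summed to medians of 304 and 580 CPM in low and high WT cells and 475 and 385 in 3xTg with Aldh1l1 at 0 in each class, and the 8 endothelial markers to medians of 0 in each class with Cldn5 and Pecam1 at 0. Oligodendrocyte markers had summed medians of 48.9 and 89.6 CPM in low and high WT cells (highest 1535 and 1439) and 26.4 and 16.3 in 3xTg, and glutamate neuron markers of 26.9 and 7.52 in WT and 11.8 and 8.26 in 3xTg. The part of these cells' RNA in the differences was not tested further.

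Genes that differ between subtypes of DA neuron lay on both sides. Of 14 subtype genes that passed, a list added after the values were seen, 5 were lower in both genotypes (Aldh1a1, Anxa1, Grp, Lpl and Neurod6) beside 2.22% of all genes, and 2 were higher (Calb1 and Calb2; 14.3%, beside 5.35%). The list median was 0.94 in WT, with 7 genes higher and 5 lower beside 18.4% and 13.4% of all genes, and -0.86 in 3xTg, with 2 higher and 7 lower beside 17% and 12%. Aldh1a1, an aldehyde dehydrogenase of ventral tier DA neurons, had 0, 3181 and 8587 normalized counts in low and 0, 20.0 and 2527 in high 3xTg cells, and none of the 11 high cells lay above the low median. In WT it had 0, 480 and 11731 in low and 0, 178 and 3587 in high cells, with 4 of 12 high cells above the low median. Its differences were -2.48 in WT, or -1.54 without cell 60, and -5.02 in 3xTg.

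Anxa1, which marks a subset of the Aldh1a1 cells, had a count in 5 of 12 low and 3 of 12 high WT cells and in 9 of 11 low and 4 of 11 high 3xTg cells. Its highest normalized count was 3350 in low and 27.9 in high WT cells and 3783 and 395 in 3xTg, and the differences were -3.32 and -4.57. Grp, a neuropeptide, differed by -1.25 and -3.51, the lipase Lpl by -1.21 and -2.36 and the transcription factor Neurod6 by -1.48 and -2.49. The calcium-binding proteins calbindin (Calb1) and calretinin (Calb2) differed by 1.60 and 1.21 and by 1.14 and 2.50, but Calb2 differed by -2.97 within WT 1 to 22.

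Within runs, Anxa1 was lower in all 4 (-6.72, -3.12, -1.63 and -7.02) and so was Grp (-4.34, -2.04, -2.64 and -5.51), whereas Aldh1a1 was lower in 3 and higher in WT 57 to 74 (-4.57, -3.58, 3.04 and -5.97). Lpl and Neurod6 were likewise below 0 in 3 and above 0 in WT 57 to 74 (0.25 and 0.49). Seen from the other side, Fos had a median of 587 CPM in the 27 WT cells with an Aldh1a1 count and 1453 in the 8 without, and 617 in 23 and 1595 in 10 3xTg cells. For Anxa1 the medians were 546 in 14 and 1068 in 21 WT cells and 509 in 17 and 1820 in 16 3xTg cells. A count of at least 1 placed a cell among those with the gene, and a minimum of 10 was not applied. Some cells with Aldh1a1 held little of it, such as 0.826 normalized counts in 3xTg cell 90 and 3.37 in WT cell 20. The highest Fos cell of 3xTg, at 5588 CPM, had counts of both genes, so high Fos was not confined to cells without them.

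Ion channel genes set the firing of these neurons. Of 9 genes of the SK channel and its regulators, Ppp2r1a, a scaffold subunit of the phosphatase PP2A, was higher in both (2.43 and 1.45), which is 11.1% beside 5.35% of all genes. In 3xTg alone 4 of the 9 were higher, beside 17% of all genes, and in WT 3 were, beside 18.4%. Kcnn3, the SK3 channel, differed by 1.07 in WT and 0.91 in 3xTg, and Csnk2a1, the casein kinase 2 subunit, by 0.93 and -0.31. Of 12 pacemaking and firing channel genes, Kcnip3, a potassium channel partner, was higher (1.07 and 1.61; 8.33%) and Kcnma1, the BK channel, lower in both (-1.90 and -1.21), beside 5.35% and 2.22% of all genes. In WT alone 4 of the 12 were lower, beside 13.4% of all genes, and in 3xTg 3 were, beside 12%. Kcnma1 had medians of 49.4 in low and 3.63 in high WT cells and of 41.1 and 11.8 in 3xTg.

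The 10 genes with the largest smaller difference of the genotypes, Fos apart, were Btg2, Jun, Egr1, Arhgdia, Dusp14, Frmd4b, Sncg, 1700086L19Rik, Tmeff2 and Bdnf. Arhgdia differed by 3.68 and 3.66 with medians of 22.7 in low and 316 in high WT cells and 35.3 and 323 in 3xTg. Dusp14, a MAP kinase phosphatase, differed by 3.68 and 3.33. Sncg had a count in all high cells, with 105, 528 and 1282 normalized counts in WT and 133, 724 and 1258 in 3xTg, against 0, 105 and 393 and 0, 227 and 781 in low cells.

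At the other end stood Anxa1, Aldh1a1, Anapc4, Leng8, Dnmt3a, Mllt10, Cbln4, Atr, Tiam2 and Rabep1. Dnmt3a, a DNA methyltransferase, differed by -2.62 and -2.23 with medians of 56.1 in low and 9.44 in high WT cells and 61 and 24 in 3xTg. Cbln4, a secreted synapse organizer, had a count in 8 low and 2 high WT cells and in 5 low and 1 high 3xTg cells, and differed by -3.49 and -2.20. Atr, a DNA damage kinase, differed by -2.12 and -2.21, and Tiam2, an activator of Rac, by -2.11 and -3.2.

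Ranked over all cells, middle ones included, the genes whose normalized counts went most closely with Fos in both genotypes were Sncg (Spearman 0.56 over 35 WT and 0.64 over 33 3xTg cells), Arhgdia (0.54 and 0.77), Btg2 (0.50 and 0.62), Egr1 (0.54 and 0.48), Gm6682 (0.48 and 0.56), 1700086L19Rik (0.48 and 0.53), Tuba1a (0.47 and 0.62), Tceal3 (0.47 and 0.54), Taldo1 (0.45 and 0.46) and Dnaja1 (0.45 and 0.50). Both values of a cell share its size factor, which can raise such correlations. Hspa8, for example, had 0.30 and 0.39 with normalized Fos counts and 0.15 and 0.16 with Fos CPM. Fosb and Jun followed Fos more closely in 3xTg (0.88 and 0.80) than in WT (0.25 and 0.41), a difference between 1 sample and 1 sample that has no replicate check.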

How the data were processed

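Single VTA DA neurons were sequenced one library per cell. The authors trimmed reads, aligned them to the mouse transcriptome (mm10), removed duplicates and deposited estimated counts per gene, of which 55.3% of values above 0 were not whole (tolerance 0.001), beside log2 values normalized with DESeq2, which were not used here. Depth was 492505 to 1678624 counts per cell. Here Fos CPM was computed from the deposited estimated counts, and cells were ranked and divided in 3 within each genotype. Counts were divided by size factors from the 787 genes found in all cells, a pseudocount of 1 was added, and genes with a count in at least 25% of the cells of each genotype were compared by mean log2 difference, less the median gene. Sums were rounded for exact intervals. Named genes were the listed genes, the 10 with the largest smaller difference in each direction and the 10 with the largest smaller Spearman correlation. The choice of cells, lists and comparisons was made with earlier results of these data known. No test was made, because cells are not replicates. Alternatives were other size factors (TMM), filters, pseudocounts, cut points, thinning and cells left out. Scripts, checked on simulated data, used Python 3.11.15, numpy 2.4.6, scipy 1.17.1, pandas 2.3.3, R 4.3.3 and edgeR 4.0.16 (TMM only). Promoters came from RefSeq (GRCm38.p6).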

Additional observations from a re-analysis of the deposited data

How the results depend on the processing

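The AP-1 and rapid list lay above the median gene in both genotypes under every alternative run, including each single run of label numbers, from 0.71 to 2.28 in WT and from 0.98 to 2.82 in 3xTg. It was 2.82 in 3xTg without cells with at least 10 C1q counts and 2.69 with counts under 10 set to 0, both chosen after seeing the data. Leaving out 1 cell at a time gave 1.34 to 2.01 in WT and 1.49 to 2.19 in 3xTg. The heat shock list changed direction within single runs (-0.65 in WT 1 to 22 and -0.22 in 3xTg 76 to 92), and leaving out 1 cell gave 0.74 to 1.23 in WT and 0.48 to 0.99 in 3xTg.

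The numbers of genes higher and lower in both genotypes depended on the settings. Against 526 and 218 they were 913 and 588 with a pseudocount of 0.1, 154 and 20 with 10, 346 and 416 with summed counts, 129 and 35 among genes in 80% of cells, 304 and 61 with cells split at the median Fos level, 837 and 342 with Fos ranked on normalized counts, 955 and 422 without the C1q cells and 49 and 24 when required in each of 4 runs. Without the C1q cells the classes held only 8 WT and 6 3xTg cells each. The number higher was 349 with classes formed within runs and averaged and 304 with a total-count term. Leaving out 1 cell gave 484 to 622 and 194 to 268. With 25% of the cells of each genotype as the filter, genes seen in few cells also passed, and counting depth limits what their values show.

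Genes detected, -1127 in WT and 680 in 3xTg (high minus low median), had no stable direction: 3xTg gave -39.5 with classes of 25% of the cells, -1226 with Fos ranked on normalized counts, -210 with classes formed within runs and averaged and -584 without cells with Pvalb, Tmem119, P2ry12 or Aldh1l1, and WT gave 719.5 averaged over runs. Without 3xTg cell 32 it was 96 and without cell 30 it was 1510; WT ranged from -1420 to -765.

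For Fos and 28 other genes (the AP-1 and rapid genes called in both genotypes and the 10 with the largest differences each way) 1081 of the values kept their direction and moved by less than 1 SD over the cells of a class, a wide margin that leaves room for a value to cross the 2-fold mark, 12 moved further and 11 changed sign: relative to the median gene, Ppp1r15a in WT was -0.022 and Leng8 in 3xTg 0.058 in summed counts, Dusp1 in 3xTg was -0.16 with a total-count term, Aldh1a1 3.04 and Junb -0.41 in WT 57 to 74, and Dnmt3a 0.83, Gadd45g -0.057, Jund -0.47, Leng8 0.76, Per1 -0.021 and Rabep1 0.63 in 3xTg 76 to 92. The cause was not tested. Cells of WT and 3xTg could not be paired, because the label numbers are not shared between the genotypes. High and low cells were compared within runs, as given above, and no test was made.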

Other observations

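Genes of glycolysis had a median difference between high and low Fos cells of 0.87 in WT and 0.53 in 3xTg over 16 genes, of which 14 and 15 were above 0, beside 50.0% of all genes in each genotype. Within the 4 runs in label order the median was -0.54, 1.04, 1.4 and -0.59, so the direction turned in 2 of them. Pkm, which makes pyruvate, was past 2-fold in both (1.18 and 1.69; 1 of 16, 6.25%, beside 5.35% of all genes) but had -0.56, 2.47, 0.96 and -0.62 in the runs, with medians of 896 in low and 2192 in high WT cells and of 2609 and 2984 in 3xTg. Tuba1a, a tubulin abundant in neurons, had a count in all cells of these classes and differed by 1.46 and 1.14, but by -0.07, 1.69, 1.97 and -0.41 in the runs. Nuclear RNAs as a list had medians of 0.16 in WT and -0.54 in 3xTg over 6 genes.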
